A study of Mus musculus with 24 samples.

Results

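Exoc4, Ctsf and Sncg are 3 genes that were higher in irradiated mouse lung and skin at 12 h than without irradiation, and near their control levels at 1 h in most arrays. They were chosen by this delayed pattern, as genes without a well-known role in the radiation response, from 5908 genes with a single symbol on the array. Each was measured by 1 cDNA probe whose only annotated symbol is that gene, so 3 of the 8750 features analysed are described here. The values that picked them are their changes from the same strain's control at each time in both tissues, and these changes are therefore given as descriptions, with no test.

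Exoc4 encodes a subunit of the exocyst, the complex that tethers secretory vesicles to the plasma membrane before SNARE proteins fuse them, under the control of small GTPases. Ctsf encodes cathepsin F, a papain-like cysteine protease that degrades proteins in lysosomes and that cystatins can inhibit. Sncg encodes gamma-synuclein, a small protein of the synuclein family that is abundant in peripheral neurons and also present in adipocytes. After ionizing radiation, the transcription factor p53 is stabilized and raises transcripts such as Cdkn1a, a cell cycle inhibitor, and Ccng1, a cyclin that binds a phosphatase.

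The arrays compared mice at 1 h, 12 h and 72 h after a single local dose of gamma-rays with non-irradiated mice of the same strain. The animals were females, aged 12 to 13 weeks, of 3 inbred strains: A/J, C3H/HeMs and C57BL/6J. Lungs were taken after 10 Gy to the thorax and skin, in its full thickness, after 30 Gy to the hind leg. Each of the 24 arrays held RNA pooled from 3 mice, with 1 array per strain, tissue and time, so the 3 arrays of a group are 3 strains and not repeats of one strain. Every array also held a common reference, a mixture of total RNA from 10 organs, in the other dye: lung RNA carried Cy3 and skin RNA carried Cy5. Values below are log2 ratios of the tissue over this reference, centred on the median of each array, and a change is the difference between an irradiated array and the control array of its strain. Where 3 values are listed, the first belongs to A/J, the second to C57BL/6J and the third to C3H/HeMs. Tissue, dye, dose and irradiated site changed together, so their effects cannot be told apart and lung was not tested against skin.

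The labelled tissues matched their markers in the control arrays: in lung 7 of 8 genes of lung epithelium were above the reference, and in skin 8 of 8 epidermal genes. As deposited, lung and skin arrays correlated between -0.52 and -0.12 over all features, and after the sign of the lung ratios was turned to tissue over reference they correlated between 0.12 and 0.51. In lung, 4 arrays differed from the remaining 8, namely those of 12 h and 72 h in the strains A/J and C3H/HeMs. They held 115 to 674 ratios of exactly 0, against 1 to 23 on the other 8, and correlated with these at 0.80 to 0.89, while correlations were 0.89 to 0.94 within the 4 and 0.90 to 0.96 within the 8. Of the late lung arrays, those of C57BL/6J belong to the larger set together with all lung control and 1 h arrays. None of the 72 values of Exoc4, Ctsf and Sncg was exactly 0 or at the deposited limit.

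The stretches just before the annotated start of each gene are shown because the 3 genes were higher together at 12 h, which was part of their choice. Some known p53 targets, such as Cdkn1a, had also risen in lung at this time. All 3 genes were found in the RefSeq promoter table for build GRCm38.p6. The capitals mark a p53 half-site, a motif of 10 bases searched by its name on both strands.
Exoc4, chr6:33248878-33249089, plus strand: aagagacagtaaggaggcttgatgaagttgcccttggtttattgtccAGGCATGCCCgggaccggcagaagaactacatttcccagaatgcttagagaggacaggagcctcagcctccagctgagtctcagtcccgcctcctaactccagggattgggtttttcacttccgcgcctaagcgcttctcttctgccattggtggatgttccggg
Ctsf, chr19:4854915-4855164, plus strand: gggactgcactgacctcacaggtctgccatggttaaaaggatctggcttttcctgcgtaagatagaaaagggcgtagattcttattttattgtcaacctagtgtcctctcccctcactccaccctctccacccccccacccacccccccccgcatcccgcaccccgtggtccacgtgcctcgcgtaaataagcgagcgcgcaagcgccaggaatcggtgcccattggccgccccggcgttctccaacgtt
Sncg, chr14:34374670-34374919, minus strand: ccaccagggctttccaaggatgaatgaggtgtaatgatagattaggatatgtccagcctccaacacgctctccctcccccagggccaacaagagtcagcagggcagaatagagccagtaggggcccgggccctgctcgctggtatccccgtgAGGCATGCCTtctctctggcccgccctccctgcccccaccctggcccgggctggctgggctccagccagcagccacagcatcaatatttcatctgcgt

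The Exoc4 stretch held the half-site from -165 to -156, and the Sncg stretch from -98 to -89, relative to the first annotated base of the gene, where each printed stretch ends. The RefSeq promoter window of Exoc4 is placed on another start site further inside the gene, from which the same half-site lies at -203 to -194. No half-site was found in the window of Ctsf. Of all 32851 RefSeq windows, which run from 250 bases before to 50 bases after a start, 8.36% held at least 1 half-site. The half-sites of Exoc4 and Sncg share the 9 bases AGGCATGCC, a motif chosen after the sequences were seen, which 0.155% of the windows held. A full p53 site, made of a pair of half-sites with up to 13 bases between them, was found in none of the 3 windows and in 0.0731% of all. The TATA motif TATAAA was found in none of the 3 windows (13.6% of all). The motif CCAAT occurred at 2 places in the Exoc4 window and at 1 in that of Ctsf (37.4% of all windows). GGGCGG, the core of a GC box, occurred at 1 place each in the Ctsf and Sncg windows (35.7% of all), and the E-box CACGTG at 1 place in that of Ctsf (7.15% of all). A match describes these letters only, and the part of p53 in the changes of Exoc4, Ctsf and Sncg was not tested.

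Exoc4 had the highest change of the 3 genes at 12 h and 72 h in both tissues. In lung its log2 ratios were -0.12, 0.00 and 0.30 without irradiation and -0.01, 0.10 and 0.13 at 1 h. They were 2.12, 1.67 and 2.16 at 12 h, and 1.70, 1.47 and 1.58 at 72 h. All 3 arrays of 12 h and of 72 h thus lay above all 3 control arrays, and the 1 h arrays lay among the controls. This separation was seen for 6.39% of all features at 12 h, 7.15% at 72 h and 3.53% at 1 h, and since it was part of the choice of these genes nothing is read from it. The mean change in lung was 1.92 ± 0.29 at 12 h, a 3.80-fold higher level, and 1.52 ± 0.27 at 72 h, or 2.88-fold (SD over 3 strains). At 1 h it was 0.02 ± 0.16. Among 8750 features the 12 h change ranked 4 and the 72 h change 7 from the top. These ranks, and those given below for Ctsf and Sncg, rest on the changes that chose the genes, so nothing is read from them. In these whole-tissue samples, more cells that contain a transcript and more of it per cell cannot be told apart.

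In skin, Exoc4 lay above the reference on all 12 arrays. Its log2 ratios were 0.56, 0.66 and 1.30 in control skin and 0.57, 0.87 and 0.99 at 1 h. At 12 h they were 2.70, 2.58 and 2.47, and at 72 h 2.74, 2.06 and 2.41. The late arrays again lay above all controls (3.63% of all features at 12 h and 4.19% at 72 h), with C3H/HeMs starting from the highest control level. The mean change was 1.75 ± 0.51 at 12 h, or 3.36-fold, and 1.57 ± 0.55 at 72 h, or 2.96-fold, against -0.03 ± 0.26 at 1 h. It was larger in A/J (2.15 at 12 h and 2.19 at 72 h) than in C3H/HeMs (1.17 and 1.12). Exoc4 was 1 of 5 features that were at least 2-fold above their own control in all 3 strains of lung and of skin at 12 h (0.0571% of all), and 1 of 2 at 72 h (0.0229%). The other named ones were Ctsf, Ccng1 and Serpina3n, a serine protease inhibitor, at 12 h and Ccng1 at 72 h. Exoc4 and Ctsf were chosen by these same changes, so nothing is read from their place among these features.

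Ctsf lay below the reference in control lung and above it at 12 h and 72 h. Its lung log2 ratios were -0.27, -0.31 and -0.26 without irradiation and -0.23, -0.40 and -0.31 at 1 h. They were 1.61, 1.02 and 1.60 at 12 h and 1.17, 0.57 and 1.25 at 72 h. Every 12 h and 72 h array lay above the controls (6.39% and 7.15% of all features), and C57BL/6J was the lowest of the 3 strains at both times. The mean change was 1.69 ± 0.31 at 12 h, a 3.22-fold higher level, and 1.27 ± 0.35 at 72 h, or 2.42-fold, against -0.03 ± 0.06 at 1 h. These changes ranked 11 and 16 among all features.

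In skin, the log2 ratios of Ctsf were 0.67, 0.98 and 0.52 without irradiation and 0.49, 0.60 and 0.72 at 1 h. They were 1.98, 2.01 and 1.72 at 12 h and 1.58, 1.59 and 2.03 at 72 h. All late arrays lay above the controls (3.63% of all features at 12 h and 4.19% at 72 h). The changes of the 3 strains were closest to each other at 12 h. The mean change was 1.18 ± 0.14 at 12 h, or 2.27-fold, and 1.01 ± 0.46 at 72 h, or 2.02-fold, against -0.12 ± 0.29 at 1 h. The change ranked 78 among all features at 12 h and 254 at 72 h. At 72 h the change of Ctsf was 1.51 in C3H/HeMs, 0.91 in A/J and 0.61 in C57BL/6J.

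Sncg had the lowest change of the 3 genes in lung at 12 h and 72 h. Its lung log2 ratios were -0.24, -0.50 and -0.36 without irradiation and 0.16, -0.34 and 0.07 at 1 h. They were 1.04, 0.38 and 0.94 at 12 h and 0.71, 0.14 and 0.79 at 72 h. The late arrays lay above all controls (6.39% of all features at 12 h and 7.15% at 72 h). The 1 h arrays overlapped the controls, although each was above the control of its own strain. The mean change was 0.33 ± 0.14 at 1 h, or 1.26-fold, 1.15 ± 0.23 at 12 h, or 2.22-fold, and 0.91 ± 0.25 at 72 h, or 1.88-fold. It ranked 33 at 12 h and 44 at 72 h.

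In skin, Sncg was well above the reference. It had the widest spread between strains of the 3 genes at 1 h, 12 h and 72 h, but not in control skin. Its log2 ratios were 1.91, 1.39 and 1.52 without irradiation and 3.19, 2.03 and 0.91 at 1 h. At 12 h they were 3.07, 3.51 and 2.07, and at 72 h 3.07, 1.29 and 1.55. The 12 h arrays lay above all controls (3.63% of all features), and the 1 h and 72 h arrays overlapped them. Of all features, 2.59% were separated at 1 h and 4.19% at 72 h. In A/J the ratio was already 1.28 above the control at 1 h and 1.16 above it at 12 h and at 72 h. In C57BL/6J it was 2.12 above at 12 h and -0.10 from the control at 72 h, and in C3H/HeMs it was -0.61 from the control at 1 h and 0.55 above at 12 h. The mean change was 0.44 ± 0.96 at 1 h, 1.28 ± 0.79 at 12 h, or 2.42-fold, and 0.36 ± 0.69 at 72 h. Without A/J the mean at 72 h was -0.04 and at 1 h 0.02. Without C57BL/6J the 12 h mean was 0.86.

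**Figure D1:**
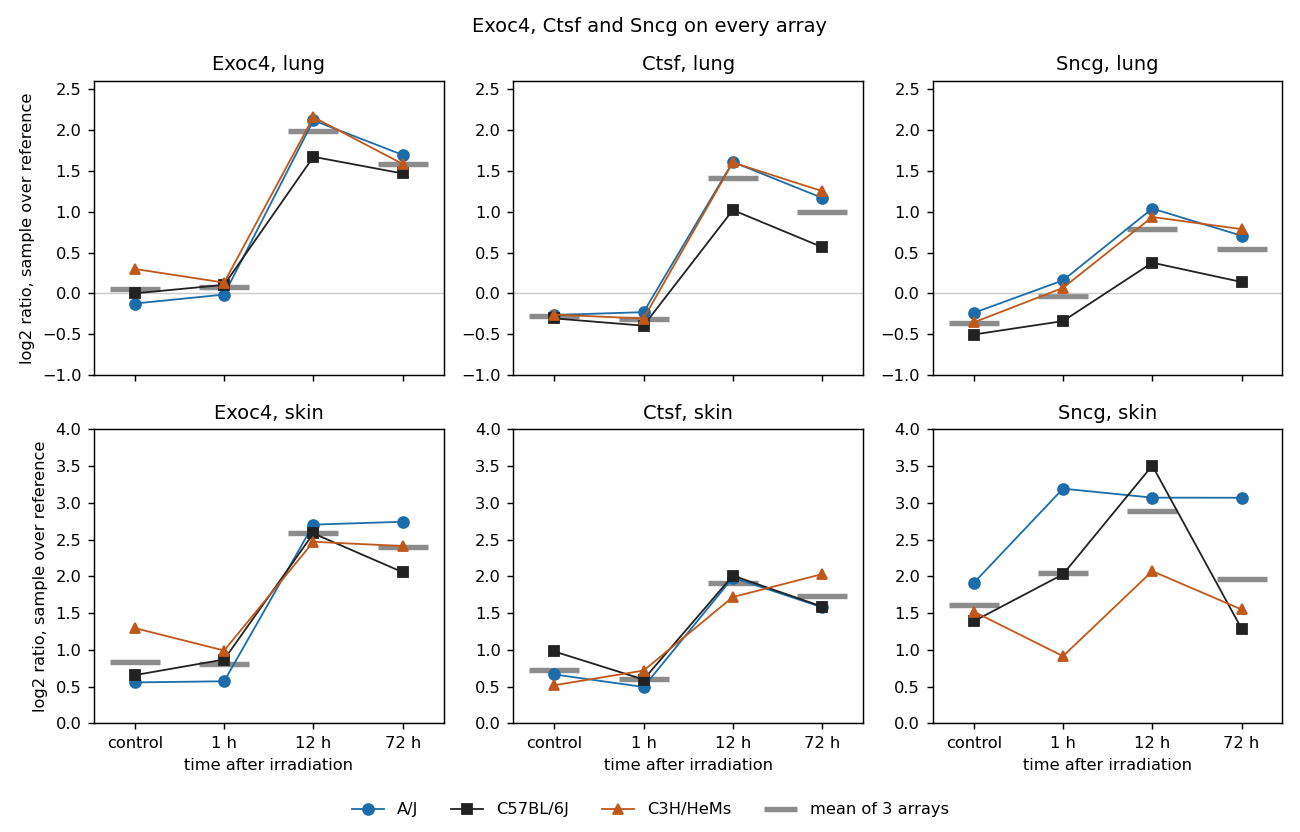
Log2 ratio of lung (top row) or skin (bottom row) over the common reference for Exoc4, Ctsf and Sncg on each of the 24 arrays, by time after irradiation, with the control at the left. Lines join the arrays of a strain and grey bars are means of 3 arrays. All 12 h arrays lie above all control arrays in the 6 panels, which was part of the choice of these genes. Sncg in skin spreads from 1.29 to 3.07 at 72 h.

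The order of the group means showed which times were apart. For Exoc4 in both tissues and Ctsf in both tissues, control and 1 h arrays overlapped, 12 h and 72 h arrays overlapped, and a gap separated the 2 pairs. For Exoc4 the mean levels were 0.06 ± 0.22 in control lung, 0.07 ± 0.08 at 1 h, 1.98 ± 0.27 at 12 h and 1.58 ± 0.11 at 72 h (SD, n = 3 each). For Ctsf they were -0.28 ± 0.03 in control lung, -0.31 ± 0.08 at 1 h, 1.41 ± 0.34 at 12 h and 1.00 ± 0.37 at 72 h. For Sncg every neighbouring pair of groups in the order of means overlapped in lung, from -0.37 ± 0.13 in control lung through -0.04 ± 0.27 at 1 h and 0.54 ± 0.35 at 72 h to 0.78 ± 0.36 at 12 h. The same overlap of neighbours held for Sncg in skin, where the 72 h mean, 1.97 ± 0.96, lay below the 1 h mean, 2.05 ± 1.14.

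From 12 h to 72 h the lung values of all 3 genes were lower in each of the 3 strains. The mean difference of 72 h from 12 h in lung was -0.40 ± 0.19 for Exoc4, -0.41 ± 0.06 for Ctsf and -0.24 ± 0.09 for Sncg. On the log2 scale, 79.2%, 75.4% and 79.2% of the 12 h changes of Exoc4, Ctsf and Sncg were present at 72 h. In skin the share was 89.6% for Exoc4, 85.5% for Ctsf and 28.4% for Sncg. The skin difference of 72 h from 12 h was -0.18 ± 0.30 for Exoc4 and -0.17 ± 0.42 for Ctsf, each with 1 strain higher at 72 h, and -0.91 ± 1.16 for Sncg.

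The lung values rest in part on the 4 arrays that stand apart, and these are the late arrays of 2 of the 3 strains. In C57BL/6J, whose lung arrays all belong to the larger set, the changes at 12 h were 1.67 for Exoc4, 1.33 for Ctsf and 0.88 for Sncg. At 72 h they were 1.47, 0.87 and 0.64 for the same genes. Those of A/J and C3H/HeMs at 12 h were 2.24 and 1.86 for Exoc4, 1.87 and 1.86 for Ctsf, and 1.28 and 1.29 for Sncg. Without the 4 arrays the fitted change at 12 h was 1.63 for Exoc4, 1.35 for Ctsf and 0.96 for Sncg, and at 72 h 1.42, 0.90 and 0.73. These values rest on 1 late array per time, that of C57BL/6J, so the strain and the array set cannot be told apart.

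**Figure D2:**
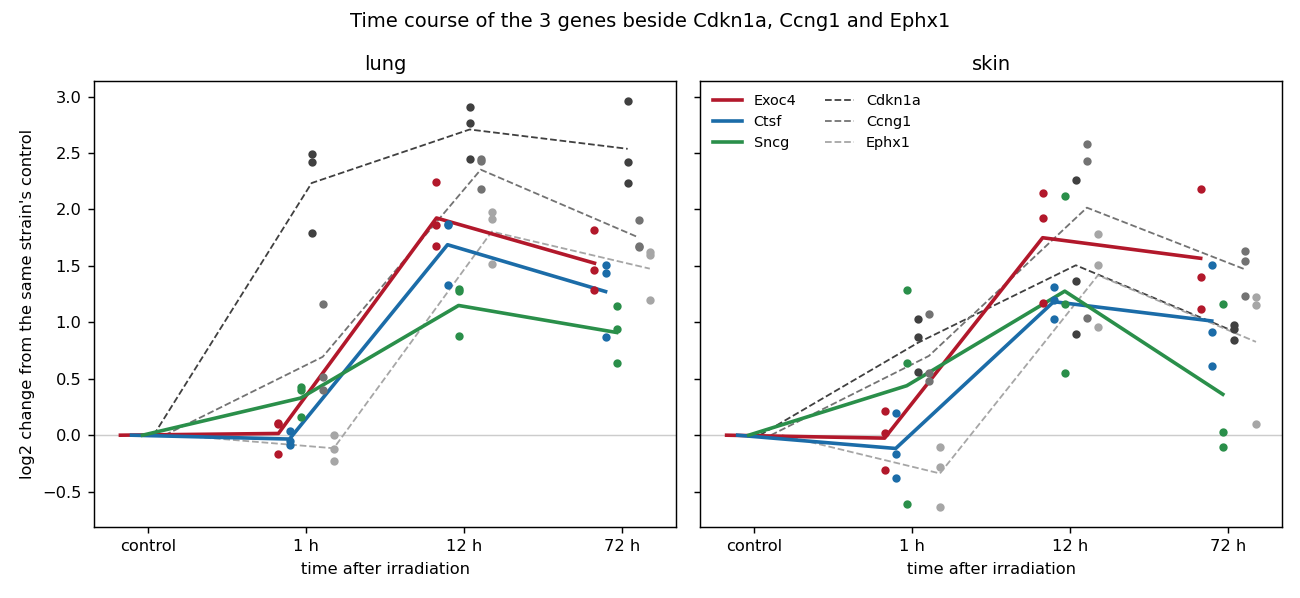
Log2 change from the same strain's control by time after irradiation in lung (left) and skin (right) for Exoc4, Ctsf and Sncg (solid lines, mean of 3 strains) and for Cdkn1a, Ccng1 and Ephx1 (dashed lines), with 1 point per strain. In lung, Cdkn1a is at 2.23 at 1 h, when Exoc4, Ctsf and Ephx1 are near 0, and all 6 genes are above 1 at 12 h.

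Cdkn1a, measured on the same arrays, had a different time course in lung. It rose by 2.23 ± 0.20 at 1 h, by 2.71 ± 0.20 at 12 h and by 2.54 ± 0.20 at 72 h (SE, limma adjusted p = 0.0133, 0.00158 and 0.00346), so that most of its change was present at 1 h, while Exoc4 and Ctsf stood at 0.02 and -0.03. Ccng1 was between the 2 patterns, with 0.69 at 1 h, 2.35 at 12 h and 1.75 at 72 h. At 1 h, 1 of the 18 measured p53 targets passed in lung, Cdkn1a, which was also the only one of all 8750 features (0.0114%). At 12 h 3 of 18 passed, Cdkn1a, Ccng1 and Trp53inp1, a stress-induced partner of p53, where 10 of all features rose (0.114%). The same 3 passed at 72 h, where 8 features rose (0.0914%) and 2 fell (0.0229%). The median change of the 18 targets in lung was 0.16 at 1 h, 0.57 at 12 h and 0.50 at 72 h, against -0.01, 0.07 and 0.05 over all features. With the 2 groups of each comparison fitted alone, 0 of 18 passed at any time, and with the set of lung arrays as a block 0 passed at 72 h. With A/J left out or with C3H/HeMs left out 0 of 18 passed in lung, and with C57BL/6J left out 2 passed, at 12 h.

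In skin none of the 8750 features passed at any time by limma (0% higher and 0% lower), with 382, 587 and 647 features at an unadjusted p under 0.05 at 1 h, 12 h and 72 h. The medians of the 18 p53 targets in skin were 0.33 at 1 h, 0.80 at 12 h and 0.58 at 72 h, against -0.05, -0.03 and -0.01 over all features. Cdkn1a in skin was 0.82, 1.51 and 0.92 above control at 1 h, 12 h and 72 h. Exoc4 was at 1.75 and Ccng1 at 2.02 in skin at 12 h.

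**Figure D3:**
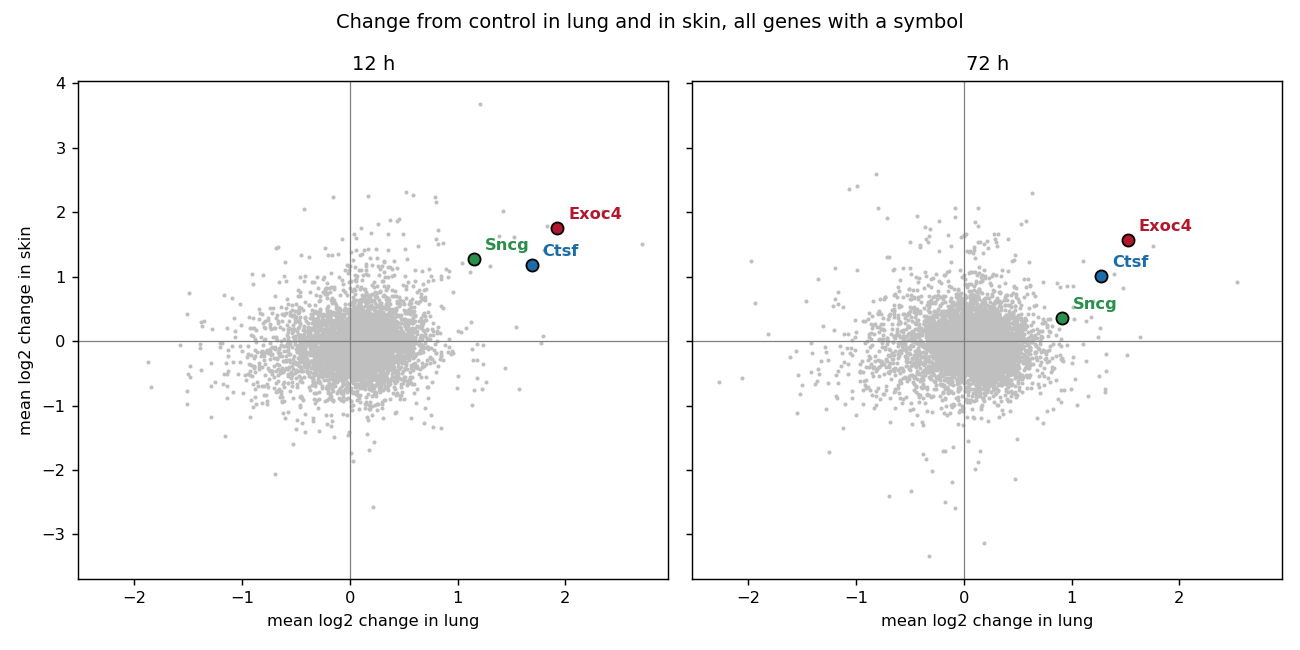
Mean log2 change from control in lung (horizontal axis) and in skin (vertical axis) at 12 h (left) and 72 h (right) for 5908 genes with a symbol, each point being the mean of 3 strains. Exoc4, Ctsf and Sncg lie to the upper right of the main cloud at 12 h, and at 72 h Sncg has 0.91 in lung and 0.36 in skin.

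The levels of the 3 genes were next compared between strains. A strain's mean covers its 4 arrays of a tissue, 3 of them irradiated, so it includes the changes that chose the genes, although the choice compared no strain with another. In lung, Sncg was lower in C57BL/6J than in A/J at all 4 times. Its mean over 4 arrays was -0.08 in C57BL/6J and 0.42 in A/J, and the difference of -0.50 ± 0.11 (SE), 0.708-fold, passed with a limma adjusted p of 0.0493 (3.68% of all features passed this contrast). The call was close to the threshold: with each of the 12 lung arrays left out in turn, the difference stayed between -0.59 and -0.45 and the limma adjusted p lay between 0.0552 and 0.174, so that no fit of 11 arrays made the call. With the set of lung arrays as a block the difference was -0.36 (adjusted p = 0.273), and with control and 1 h arrays alone -0.38 (adjusted p = 0.193). C3H/HeMs, with a mean of 0.36, was 0.44 ± 0.11 above C57BL/6J at 4 of 4 times (limma adjusted p = 0.0864; 1.82% of all features passed). The F test over the 3 strains gave a limma adjusted p of 0.0713 for Sncg in lung (2.95% of all features passed).

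For Ctsf in lung, C57BL/6J was also the lowest strain, with a mean of 0.22, against 0.57 in A/J and 0.57 in C3H/HeMs. The difference of C57BL/6J from A/J was -0.35 ± 0.14 and did not pass (limma adjusted p = 0.165). That of C3H/HeMs from C57BL/6J was 0.35 ± 0.14 (limma adjusted p = 0.192). With the set of lung arrays as a block these differences were -0.08 and 0.09 (limma adjusted p = 0.778 and 0.785). In the control lungs, and so without the late changes, the Ctsf ratios of the 3 strains lay between -0.31 and -0.26. Exoc4 in lung averaged 1.04 in C3H/HeMs, 0.92 in A/J and 0.81 in C57BL/6J, with no passing difference (limma F test adjusted p = 0.458).

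In skin, the Sncg average was lowest in C3H/HeMs at 1.51, with 2.05 in C57BL/6J and 2.81 in A/J. The difference of C3H/HeMs from A/J was -1.30 ± 0.37 (SE), with C3H/HeMs lower at 4 of 4 times, and did not pass (limma adjusted p = 0.122; 0.251% of all features passed). The limma F test over strains in skin gave adjusted p of 0.182 for Sncg, 0.713 for Exoc4 and 0.903 for Ctsf (0.377% of all features passed). For Ctsf in skin the strain means were 1.18, 1.29 and 1.25, and for Exoc4 1.64, 1.54 and 1.79.

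The genes whose changes were most like those of Exoc4, Ctsf and Sncg were ranked by Pearson's r over the 9 irradiated arrays of a tissue, among named genes with a mean absolute change of at least 0.5 times that of the member. These correlations are descriptions: the 3 arrays of a strain share its control, and the arrays share the times. The 3 members were also chosen by these same changes, so nothing is read from their places in each other's rankings. In lung, Ephx1, which encodes microsomal epoxide hydrolase, was first for Exoc4 (r = 0.98 among 461 candidates) and for Ctsf (r = 0.99 among 717). Its own lung change was -0.12 at 1 h, 1.80 at 12 h and 1.48 at 72 h. For Exoc4, Ctsf (0.96), Ccng1 (0.95), Pros1, which encodes the anticoagulant protein S (0.91), and the cytochrome P450 gene Cyp2d9 (0.89) followed. For Ctsf the next were Sncg (0.97), Pros1 (0.96), Exoc4 (0.96) and Fbxw2, an F-box protein gene (0.94).

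Sncg in lung was most like Ctsf (0.97 among 1274 candidates), followed by Hs3st1, a heparan sulfate sulfotransferase gene (0.95), Fbxw2 (0.95), Pros1 (0.95) and Ephx1 (0.94). Hs3st1 shared the shape but not the level: its lung change was -0.93 at 1 h, 0.42 at 12 h and -0.22 at 72 h. Pros1 was at -0.10, 1.04 and 0.66 at the 3 times. Exoc4 and Sncg correlated at 0.88 in lung.

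In skin the 3 genes were less alike, with r = 0.75 between Exoc4 and Ctsf, 0.50 between Exoc4 and Sncg and 0.11 between Ctsf and Sncg. For Exoc4 in skin, Ptp4a3, a phosphatase gene, came first (0.97 among 936 candidates), with changes of -0.01 at 1 h, 1.81 at 12 h and 1.40 at 72 h. Nubp1 (0.93), a gene of iron-sulfur cluster assembly, Dcxr (0.92), a carbonyl reductase gene, Ephx1 (0.91) and the kinase gene Ikbke (0.85) followed. Ephx1 was thus among the 5 genes most like Exoc4 in both tissues. For Ctsf in skin the first 5 of 2333 candidates were Ptpdc1 (0.95), Gsto1, a glutathione transferase gene (0.87), Kitl, which encodes the ligand of the Kit receptor (0.87), Lima1, an actin-binding protein gene (0.87), and Rprm (0.83), a p53 target that inhibits the cell cycle. For Sncg in skin they were Mpp1 (0.98 among 2148), Cdh5, which encodes the cadherin of endothelial cells (0.98), the chemokine gene Ccl12 (0.96), Ptgis, which encodes prostacyclin synthase (0.93), and Il18bp, which encodes a binding protein of interleukin 18 (0.93).

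None of the other measured genes of the exocyst, its GTPases and their SNARE partners passed the test. Of 17 measured, 0 passed at any time in lung or skin by limma, with 2 of 51 gene and time tests at an unadjusted p under 0.05 in lung and 3 of 51 in skin. Over all features, the share at an unadjusted p under 0.05 was 2.24% at 1 h, 12.1% at 12 h and 12.4% at 72 h in lung, and 4.37%, 6.71% and 7.39% at these times in skin. The median change of these 17 genes in lung was 0.21 at 12 h, within -0.18 for Rab8a and 0.51 for Snap23, against 0.07 over all features, and 0.22 at 72 h. By strain it was 0.53, -0.08 and 0.18 at 12 h, and 0.31, -0.03 and 0.19 at 72 h. The C57BL/6J values, the second of each, are the only ones from late lung arrays of the larger set. In skin the median was -0.13 at 12 h, with the highest value 0.16 for Rab8b, and -0.22 at 72 h. The 3 other exocyst subunits measured, at 12 h in lung, were at 0.29 for Exoc5, 0.09 for Exoc6 and 0.04 for Exoc6b. At 12 h in skin they were at 0.06, -0.46 and 0.02, and at 72 h in skin at 1.45, -0.82 and 0.17. The 1.45 of Exoc5 in skin at 72 h did not pass (limma adjusted p = 0.664). By strain this change was 3.18, 0.34 and 0.83, so that the A/J array carried the highest value.

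The other cathepsins and the cystatins had medians at or below those of all features in lung at 12 h and 72 h. Of 13 measured, 0 passed by limma, with 3 of 39 tests at an unadjusted p under 0.05 in each tissue. Their median change in lung was -0.02 at 12 h and -0.27 at 72 h, with values between -0.62 for Ctse, cathepsin E, and 0.30 for Cstb, cystatin B, at 12 h. In skin the median was -0.05 at 12 h, from -1.11 for Ctse to 0.46 for Ctss, cathepsin S, and 0.08 at 72 h. The ends of the skin range at 72 h were -2.40 for Ctse and 1.74 for Ctsm, cathepsin M, with limma adjusted p of 0.664 and 0.65.

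Among 23 other lysosomal proteins, such as hydrolases and membrane proteins, 0 passed by limma in either tissue, with 9 of 69 tests at an unadjusted p under 0.05 in lung and 2 of 69 in skin. The median change in lung was 0.22 at 12 h and 0.15 at 72 h, against 0.07 and 0.05 over all features. By strain it was 0.50, -0.11 and 0.31 at 12 h, and 0.26, -0.07 and 0.31 at 72 h. Only the C57BL/6J values, the second of each, come from late lung arrays of the larger set. Npc2, a lysosomal cholesterol carrier, had the highest value at 12 h, 0.46, and Arsb, arylsulfatase B, the lowest, -0.66 (limma adjusted p = 0.187). In skin the median was 0.12 at 12 h and -0.05 at 72 h, with Laptm5, a lysosomal membrane protein of blood cells, at 1.19 at 12 h.

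**Figure D4:**
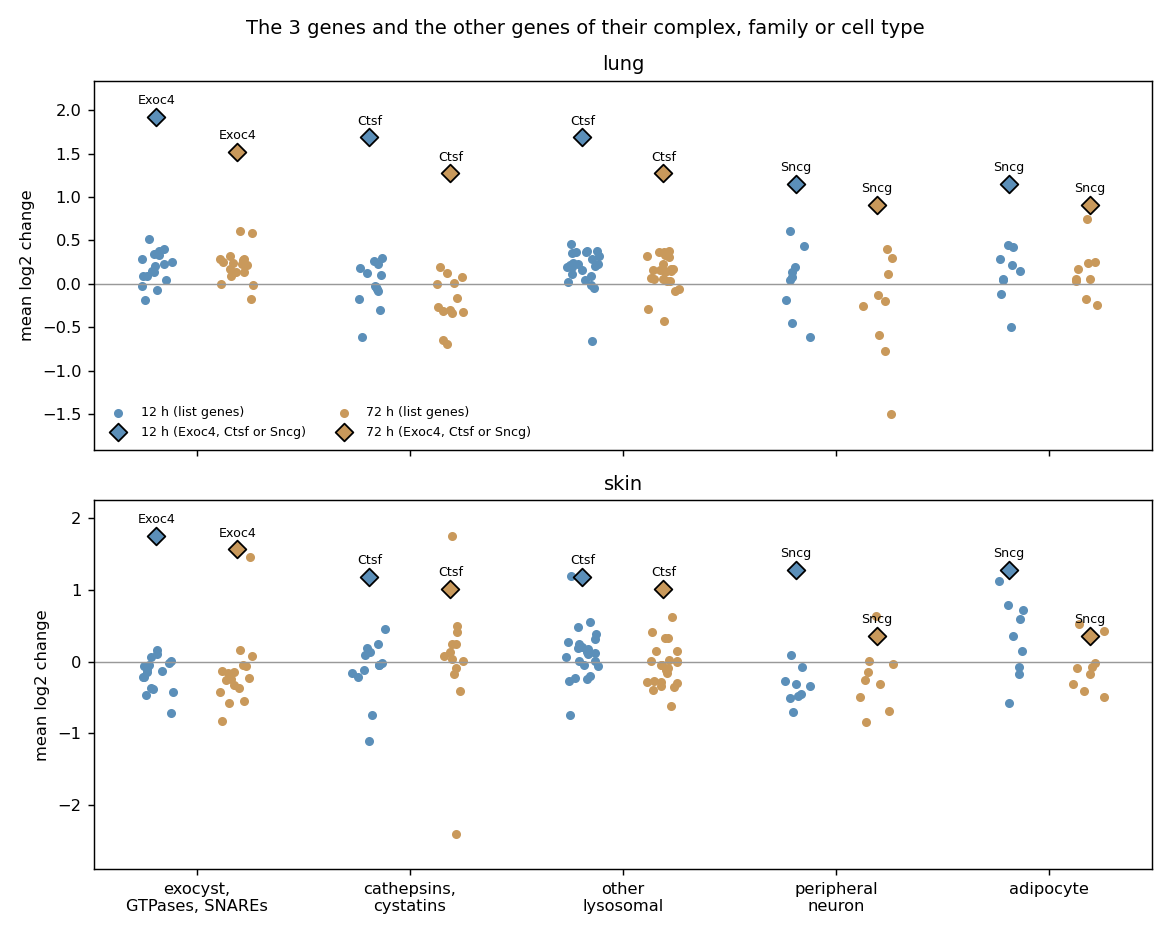
Mean log2 change from control at 12 h (blue) and 72 h (brown) in lung (top) and skin (bottom) for the measured genes of 5 lists, each point 1 gene and each diamond Exoc4, Ctsf or Sncg placed beside the list it belongs to. The diamonds at 12 h in lung, at 1.92, 1.69 and 1.15, lie above every other gene of their lists. The 3 genes were chosen by this rise, so nothing is read from their place. In skin some list genes lie higher, such as Laptm5 at 12 h (1.19) and Ctsm at 72 h (1.74), where Ctsf is at 1.18 and 1.01.

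Genes of peripheral neurons, cells that Sncg can mark, had medians near 0 or below it. The other synucleins were not analysed here. Of 9 measured neuronal genes 0 passed by limma, with 6 of 27 tests at an unadjusted p under 0.05 in lung and 7 of 27 in skin. In lung their median change was 0.08 at 12 h and -0.19 at 72 h, and in skin -0.34 and -0.26. The mean level of the list per array was -2.18 to -1.85 at 12 h and -2.47 to -1.62 in control lung. In skin it was -2.08 to -1.86 at 12 h and -1.75 to -1.49 in control skin. Of the defining neuronal genes, Nefl was at 0.44 in lung and -0.45 in skin at 12 h and Prph at -0.19 and 0.09. Of the 7 Schwann cell genes 0 passed by limma, with 3 of 21 tests at an unadjusted p under 0.05 in lung and 2 of 21 in skin, and medians of -0.35 in lung and -0.19 in skin at 12 h. By strain, the Schwann cell median at 12 h was -0.98, 0.43 and -0.48 in lung and -0.20, 0.23 and 0.17 in skin. The lung value of 0.43 is that of C57BL/6J, whose lung arrays belong to the larger set.

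Of 9 adipocyte genes 0 passed by limma, with 1 of 27 tests in lung and 0 of 27 in skin at an unadjusted p under 0.05. Their median change was 0.15 in lung at 12 h, with 7 of 9 above 0. Over all features, 59.4% were above 0 in lung and 45.3% in skin at this time. In skin, where Sncg was 1.28 above control at 12 h, the median was 0.36 with 6 of 9 above 0, between Cidec, a lipid droplet protein gene, at 1.12 and Car3, a carbonic anhydrase gene, at -0.57. The C57BL/6J array carried the higher values: the median change of the list at 12 h in skin was 0.17, 1.83 and -0.93, where Sncg was at 1.16, 2.12 and 0.55. Cidec was at 0.63, 3.66 and -0.93 on these arrays. The list's mean level in skin ran from 0.99 to 2.53 at 12 h and from 0.97 to 1.81 in controls, and Fabp4, a defining gene, was at 0.59. At 72 h in skin the adipocyte median was -0.09, when Sncg was at 0.36. The part of fat or nerve content in the Sncg values was not tested.

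On the mean of 3 strains, macrophage genes were mostly higher and muscle genes mostly lower in value in irradiated than in control skin. Of 13 macrophage and monocyte genes, 12 were above control in skin at 12 h, with a median of 0.47, and 11 at 72 h, with a median of 0.18, and 0 passed by limma (3 of 39 tests at an unadjusted p under 0.05). Over all features, 45.3% were above control in skin at 12 h and 49% at 72 h. By strain, the macrophage median in skin at 12 h was 0.44, 1.41 and 0.00, so that it too was highest on the C57BL/6J array. In lung the macrophage median was 0.13 at 12 h and 0.01 at 72 h, where Ctsf was at 1.69 and 1.27. Of 17 skeletal muscle genes in skin, 1 was above control at 12 h and 1 at 72 h, with medians of -0.73 and -0.84, and 0 passed by limma (3 of 51 tests at an unadjusted p under 0.05). The lowest muscle changes were those of C3H/HeMs, the third strain. The list's median change in skin was 0.44, -0.32 and -2.55 at 12 h, and 0.31, -0.37 and -2.23 at 72 h. The muscle list's mean level per array ran from -1.49 to -0.54 at 12 h and from -1.32 to 1.06 in control skin. Each strain's change rests on 1 control pool, so a muscle-rich control and a fall after irradiation cannot be told apart. The part of these cell types in the skin values of Exoc4, Ctsf and Sncg was not tested.

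Lymphocyte and epidermal genes had the lowest medians of the lists in lung at 12 h. Over all features, 59.4% were above control in lung at this time. Of 11 B cell genes 1 was above control and the median was -0.46, with Cd79a, a chain of the B cell receptor complex, at -1.51. Of 13 T and NK cell genes 1 was above control and the median was -0.58, with Il7r, the interleukin 7 receptor, at -1.17. No gene of either list passed by limma, with 11 of 33 B cell tests and 6 of 39 T and NK cell tests over the 3 times at an unadjusted p under 0.05. Of 8 epidermal genes 0 were above control and the median was -0.57, with 0 passing by limma and 6 of 24 tests at an unadjusted p under 0.05. The epidermal median was -1.49 in A/J and -0.58 in C3H/HeMs, whose 12 h arrays are among the 4 that stand apart, and 0.07 in C57BL/6J. For the B cell list it was -0.87, -0.57 and -0.17 in the 3 strains. In lung at 12 h the medians were 0.25 for lung epithelium, 0.00 for endothelium and -0.05 for fibroblast and matrix genes. By strain, the lung epithelium median was 0.48, -0.09 and 0.43, and that of T and NK cell genes -0.94, -0.33 and -0.29. The part of these cell types in the lung values of Exoc4, Ctsf and Sncg was not tested.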

How the data were processed

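The authors deposited a log10 ratio (Cy5 over Cy3) for each of 9275 probes of an Agilent mouse cDNA array, made with Agilent Feature Extraction per the submitters' processing notes. Its version and its background and dye steps are not given in the sources used here. Ratios were limited to ±2. Lung RNA carried Cy3 per the labels, so lung ratios were turned in sign. Ratios were multiplied by 3.32 to log2, centred on each array's median and averaged over probes of a symbol, giving 8750 features. Probe names came from the platform annotation (6433 probes with 1 symbol, 381 with several, 2461 with none, 0 symbols updated). The position of the 3 probes in their transcripts is not known here, so isoforms cannot be told apart. Fits used limma 3.58.1 in R 4.3.3 on the 12 arrays of a tissue, with time group and strain as terms, moderated by empirical Bayes, and p-values were adjusted by Benjamini-Hochberg over 8750 features (threshold 0.05). They left 6 residual degrees of freedom. The strain is the replicate number in the labels and pairs the arrays of a tissue. Deviations of arrays of a strain from their group means correlated between -0.05 and 0.71 in lung and between -0.05 and 0.68 in skin. As each group has 1 pool per strain, p-values measure the spread between strains and arrays. The number of arrays limits the precision. The members and the 15 gene lists were chosen with earlier results of these data known. Named genes are the 3 members, the 5 genes most like each per tissue, and of each list the genes that passed, those with the smallest p or the ends of the range. Alternatives varied centring, normalization, zeros, limits, probe choice, blocks and left-out arrays. The fitting code was tested on simulated data. A planned test of strain by irradiation is not reported, because it runs on the changes by which the genes were chosen.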

Additional observations from a re-analysis of the deposited data

How the results depend on the processing

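The changes of Exoc4, Ctsf and Sncg at 12 h kept their direction in both tissues under each alternative run. The lung changes at 12 h and 72 h that moved by more than 1 SD did so when the 4 arrays that stand apart were set as a block or left out. With the set of lung arrays as a block, Ctsf was at 1.33 at 12 h and 0.92 at 72 h. Without the 4 arrays, which was chosen after seeing the data, Exoc4 was at 1.63 at 12 h and Ctsf at 1.35 at 12 h and 0.90 at 72 h. The Ctsf change in lung at 1 h, -0.03, also moved by more than 1 SD, from -0.13 to 0.10, with single arrays left out. The difference of Sncg between C57BL/6J and A/J in lung no longer passed in limma without centring (-0.49, adjusted p = 0.0634), with quantile normalization (-0.47, 0.0814), with zeros as missing (-0.46, 0.0681), with the highest-variance probe per gene (-0.50, 0.0504), with the set of lung arrays as a block (-0.36, 0.273) and with control and 1 h arrays alone (-0.38, 0.193). With arrays left out in turn it ranged from -0.59 to -0.45. The cause was not tested, apart from fewer arrays in the last fits. Without the strain as replicate block the mean changes were the same by construction (Exoc4 in lung at 12 h 1.92), and 6 features passed in lung at 72 h, against 10 with it. With only the 2 groups of a comparison fitted, 0 features passed in lung at 1 h, 12 h and 72 h, against 1, 10 and 10. With the array set as a block 6 passed at 12 h and 0 at 72 h. Signal over background was not analysed here, so dim spots could not be weighed.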

Other observations

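Genes that neighbour Exoc4, Ctsf and Sncg in the RefSeq gene table, up to 3 on each side, were looked up for their changes at 12 h, and 9 of 18 were measured. Beside Ctsf, Actn3, which encodes a muscle actinin, was at 0.12 in lung and 0.51 in skin. Ccs, which encodes the copper chaperone of superoxide dismutase, was at 0.13 in lung and 0.17 in skin. Rbm14 was at -0.10 in lung, Zdhhc24 at 0.31 and Bbs1 at 0.21, and in skin Zdhhc24 was at 0.14 and Bbs1 at -0.28. Beside Sncg, Fam25c, the nearest measured gene, was at 0.21 in lung and 0.09 in skin. Bmpr1a, which encodes a bone morphogenetic protein receptor, was at 0.16 in lung and -0.55 in skin, and Shld2 at 0.09 in lung and 1.34 in skin. Plxna4, a semaphorin receptor gene and the single measured neighbour of Exoc4, was at 0.50 in lung and -0.29 in skin. These values were not tested.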
